A study of Mus musculus with 36 samples.

Results

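The let-7 family is described here by 9 mature miRNAs of the mouse kidney, mmu-let-7a-5p, mmu-let-7b-5p, mmu-let-7c-5p, mmu-let-7d-5p, mmu-let-7e-5p, mmu-let-7f-5p, mmu-let-7g-5p, mmu-let-7i-5p and mmu-miR-98-5p (written without mmu below), taken by name from 1915 mature miRNAs counted by miRNA-seq. Total RNA of whole kidneys was sequenced in 2 C57BL/6 mouse models of polycystic kidney disease. In the Pkd1 model Pkd1f/f:HoxB7-Cre mice (KO) were compared with Pkd1f/f mice (WT), and in the Pkd2 model Pkd2f/f:HoxB7-Cre mice (KO) with Pkd2f/f mice (WT), at postnatal day 1, 3 and 7 (P1, P3 and P7). The 36 libraries form 12 groups of 3. Animals of both genotypes carry floxed alleles, so the groups named WT differ from KO in the Cre transgene. The HoxB7 promoter drives Cre in the ureteric bud lineage, which forms the collecting duct, and the other cells of the kidney keep the floxed gene. The labels do not say whether the libraries of a group came from separate animals, so the p-values measure the spread between these libraries. Because whole kidneys were sequenced, a change in the share of a cell type and a change of RNA per cell cannot be told apart.

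The let-7 miRNAs are among the most abundant miRNAs of differentiated tissues. They load into Argonaute proteins and repress messenger RNAs that pair with their seed, the bases 2 to 8 of the miRNA, and their textbook targets include Lin28a, Hmga2, Myc and Ras genes. Lin28 proteins in turn block the maturation of let-7 precursors in early cells, and in many tissues mature let-7 accumulates as cells leave the proliferating state.

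The mature sequences are shown because the members differ by few bases, which bears on both their targets and their counting. RefSeq (GRCm38.p6) held a sequence for 9 of the 9 members, and each is 22 bases long. The seed is in capitals.
let-7a-5p: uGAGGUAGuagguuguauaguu
let-7b-5p: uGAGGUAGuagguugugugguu
let-7c-5p: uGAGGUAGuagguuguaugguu
let-7d-5p: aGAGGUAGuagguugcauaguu
let-7e-5p: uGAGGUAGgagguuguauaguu
let-7f-5p: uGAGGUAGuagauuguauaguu
let-7g-5p: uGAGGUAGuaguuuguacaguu
let-7i-5p: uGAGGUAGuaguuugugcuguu
miR-98-5p: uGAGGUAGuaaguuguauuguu

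All 9 members share the seed GAGGUAG. They are alike at 14 of the 22 positions, and the 8 positions that vary lie outside the seed. Counted from 1 at the 5′ end and with let-7a-5p as the reference, let-7b-5p differs by A17G and A19G, let-7c-5p by A19G, let-7d-5p by U1A and U16C, let-7e-5p by U9G, let-7f-5p by G12A and let-7g-5p by G12U and U18C. miR-98-5p differs by G11A and A19U, and let-7i-5p by 4 bases, G12U, A17G, U18C and A19U. Of the 36 pairs of members 4 differ at a single base, and the most different pair at 6. A sequencing error or an alignment with a mismatch can therefore move a read between members, and how the counting treated such reads is not given in the sources used here. Of 1679 mature miRNAs with a RefSeq sequence, let-7k and miR-1961 also carry the seed, with 17 reads and 0 reads over the 36 libraries.

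The members come from 12 hairpins. Hairpins of let-7d, let-7f-1 and let-7a-1 lie together at chr13:48536012-48538272 on the minus strand in exons of the long noncoding RNA 6720427I07Rik (GRCm38.p6, GENCODE). Those of let-7c-2 and let-7b lie at chr15:85706603-85707403 in an exon of the noncoding Lncppara, and those of let-7f-2 and miR-98 on the X chromosome in an intron of Huwe1, which encodes a ubiquitin ligase. The other hairpins are single members of the family at their loci, let-7a-2 in an intron of 3110039I08Rik, let-7g in an intron of Wdr82, let-7i in an exon of D630033A02Rik, let-7c-1 in an intron of Mir99ahg and let-7e in an intron of Spaca6. Reads of let-7a-5p, let-7c-5p and let-7f-5p, each made from 2 hairpins, had been counted under both: the second row held 99.9%, 99.4% and 97.0% of the reads of the first. The row with the higher total was used, and the reads cannot be assigned to a locus.

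Libraries held between 12569939 and 32663566 miRNA reads (median 24008082), and the smallest count of a member in any library was 2392 reads, so counting error was small beside the spread between libraries. miR-10a-5p and miR-10b-5p alone held from 31.4% to 81.0% of a library (median 57.4%), and the share of the family in all reads moved against it. The 9 members together made 0.905% to 4.15% of all reads, a 4.58-fold range, and Pearson's r with the miR-10 share was -0.917 over the 36 libraries. Both shares have the same total as denominator, so this is a description of the libraries. Of the reads other than miR-10a-5p and miR-10b-5p the family made 4.23% to 7.58%, a 1.79-fold range, with r = -0.126. In 4 libraries the miR-10 share lay more than 20 percentage points from both other libraries of the group, Pkd1 P3 WT replicate 3, Pkd1 P3 KO replicate 2, Pkd1 P7 WT replicate 3 and Pkd2 P3 WT replicate 1. Fold changes, calls and shares that move without these libraries are also given without them.

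**Figure D1:**
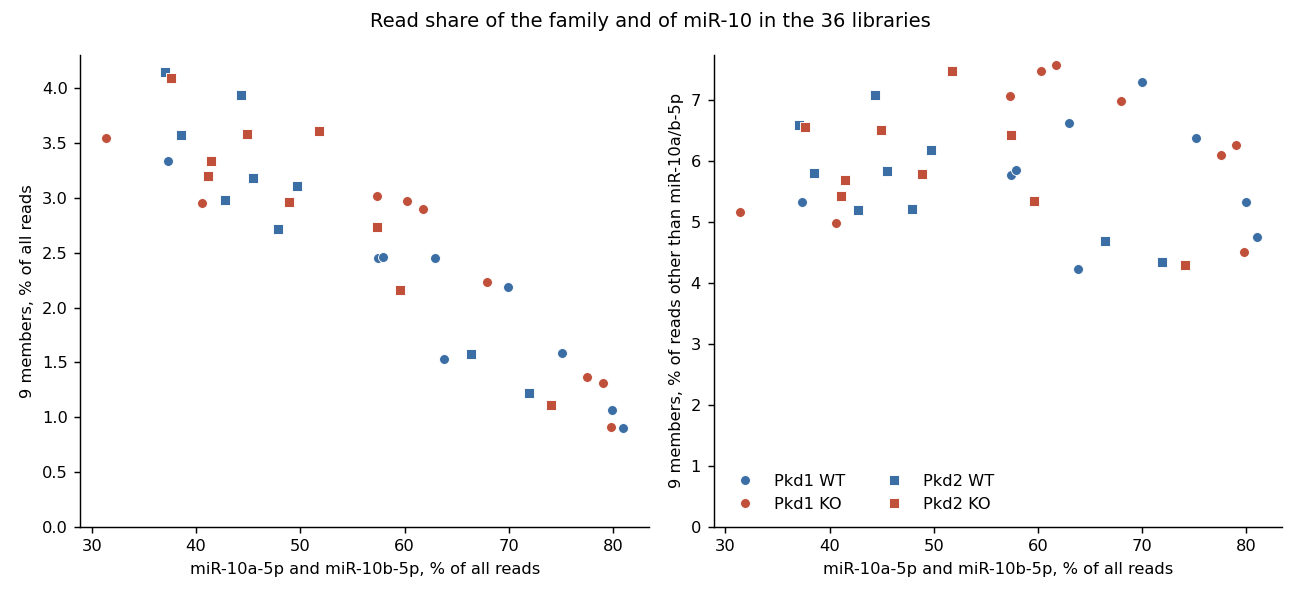
Share of the 9 members against the share of miR-10a-5p and miR-10b-5p (x axes, percent of all reads) in 36 libraries, coloured by genotype and shaped by model. On the left, as percent of all reads, the family runs from 4.15% down to 0.905% as miR-10 rises, and on the right, as percent of the reads other than miR-10, it stays between 4.23% and 7.58%.

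Levels are given below as normalised CPM, read counts scaled to library size, with library totals adjusted by the trimmed mean of M values (TMM) within a model. The members are of equal length, but ligation and amplification differ between sequences, so an order of levels is an order of reads. let-7f-5p led in every group, with a median of 32.5% of the reads of the 9 members. let-7i-5p (median 18.8%, range 13.96% to 21.3%) and let-7a-5p (median 17.7%, range 16.3% to 19.0%) followed with overlapping ranges, then let-7c-5p (median 12.2%) and let-7g-5p (median 7.29%). The 4 least abundant members overlapped one another, let-7d-5p with a median of 3.34%, let-7e-5p with 3.04%, let-7b-5p with 2.86% and miR-98-5p with 2.35%. The share of miR-98-5p ran from 1.59% to 5.66%, a 3.56-fold range, but its highest value was that of a single library, Pkd1 P1 WT replicate 3, and the range without it was 2.52-fold, beside 2.57-fold for let-7b-5p. let-7a-5p varied by 1.17-fold between its lowest and highest library.

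**Figure D2:**
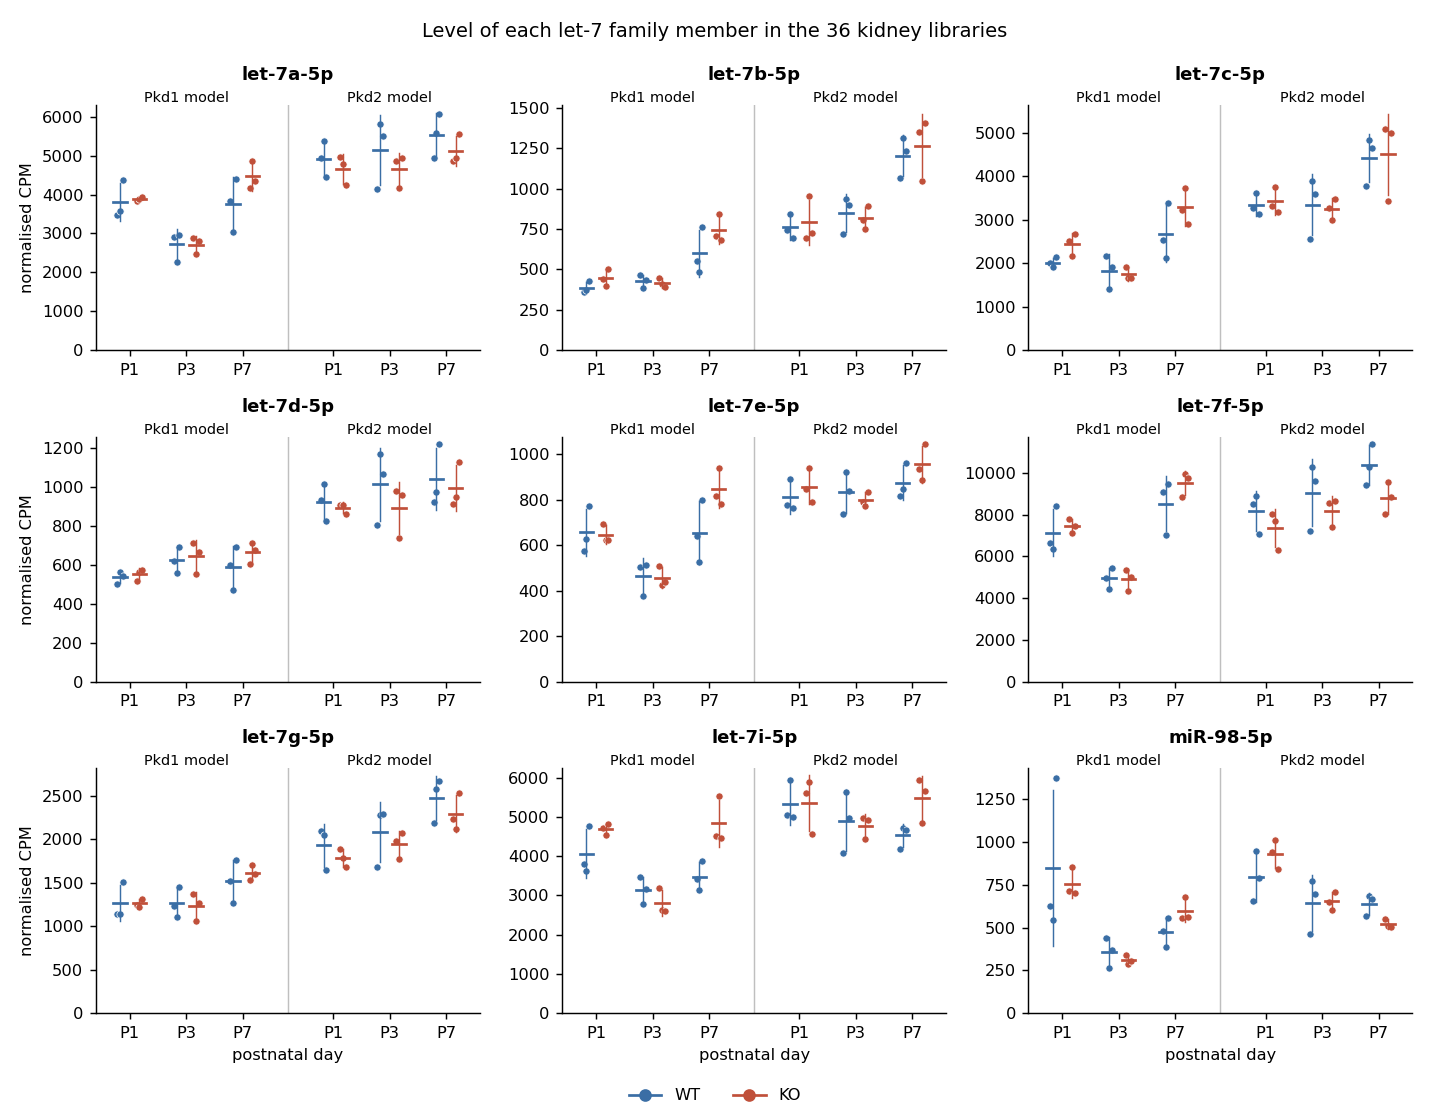
Normalised CPM (y axes, linear from 0) of each member at P1, P3 and P7 in WT (blue) and KO (red) kidneys of both models, with a point per library and a bar at the mean ± SD (n = 3). Levels of the models were scaled apart and are not to be compared with each other. let-7b-5p sits higher at P7 than at P1 in both models on this scale, which adjusts library totals by TMM, and WT and KO points lie together for most members and ages.

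The comparison of KO with WT asks which miRNAs differ when Pkd1 or Pkd2 is lost in the collecting duct. Adjusted p-values under 0.05 were reached by 0 of the 9 members at each age in both models (edgeR quasi-likelihood test, Benjamini-Hochberg over all miRNAs tested). Of all miRNAs tested the share called was 0% at P1, 0% at P3 and 0.425% at P7 in the Pkd1 model, and 0% at P1, 0% at P3 and 12.6% at P7 in the Pkd2 model. DESeq2 called 0 of 9 members in each comparison, and of all miRNAs 1.13%, 0.567% and 2.41% in the Pkd1 model and 0%, 0% and 21% in the Pkd2 model, in order of age. An unadjusted p under 0.05 was reached by let-7i-5p alone, at P7 in the Pkd1 model. Of all miRNAs 8.36%, 9.07% and 10.2% reached it with age in the Pkd1 model and 5.5%, 1.47% and 29% in the Pkd2 model.

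At P1 and P3 the differences were small in both models with TMM scaling. Log2 fold changes of the 9 members lay between -0.17 and 0.28 at P1 and between -0.20 and 0.05 at P3 in the Pkd1 model, and between -0.15 and 0.23 at P1 and between -0.18 and 0.02 at P3 in the Pkd2 model. The standard errors (SE) were 0.14 to 0.29. The 95% intervals of all members reached from 0.57-fold to 1.60-fold in these 4 comparisons, so larger differences than these are not within the intervals under TMM scaling. Other settings moved the estimates further. Over 10 alternatives let-7c-5p ran from 0.17 to 0.68 and let-7i-5p from 0.10 to 0.62 at P1 in the Pkd1 model, and neither was called. Without the 4 libraries of distant miR-10 share the median of the members at P3 was -0.02 in the Pkd1 model, against -0.03 with all libraries, and -0.20 in the Pkd2 model, against -0.06, and edgeR called 0 of 9 members in both (8.88% and 0% of all miRNAs). WT and KO libraries overlapped for 9 of 9 members at P3 in the Pkd1 model, where 11.9% of all miRNAs did not overlap, and in the Pkd2 model at P1 (13.5%) and P3 (4.69%). In the Pkd1 model at P1 let-7c-5p did not overlap (WT 1999, 1918 and 2136 CPM, KO 2515, 2171 and 2668 CPM, a difference of 0.28 ± 0.19 SE with adjusted p = 0.617), which held for 19.8% of all miRNAs tested there.

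At P7 the medians of the models lay on opposite sides of 0, and no member passed the test of a difference between the models. The medians themselves were not tested. In the Pkd1 model 9 of 9 estimates lay above 0, between 0.09 for let-7g-5p and 0.48 for let-7i-5p, with a median of 0.29 beside 0.01 for all 706 miRNAs, of which 50.6% lay above 0. In the Pkd2 model 4 lay above 0 and 5 below, between -0.29 for miR-98-5p and 0.28 for let-7i-5p, with a median of -0.06 beside 0.02 for all 746 miRNAs, of which 51.2% lay above 0. In the fit of all 36 libraries the KO effect of the Pkd1 model minus that of the Pkd2 model at P7 was above 0 for 9 of 9 members (49.3% of all miRNAs), with a median of 0.25. It was called for 0 of 9 (edgeR, smallest adjusted p = 0.466, 0.387% of 775 miRNAs called). Unadjusted p-values under 0.05 were held by 0 of 9 (12% of all), and DESeq2 called 0 of 9 (0.516% of all).

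The size of these medians rested on single libraries. In the Pkd1 model the median at P7 was 0.43 without WT replicate 3, one of the libraries of distant miR-10 share, 0.15 when WT replicate 2 was left out and 0.19 when KO replicate 2 was. Without WT replicate 2 the estimate of let-7g-5p was -0.03 and 8 of 9 estimates lay above 0, as they did with library totals alone. The difference between the models had a median of 0.50, 0.13 and 0.10 when the same 3 libraries were left out in turn, with 9 of 9 members above 0 each time.

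**Figure D3:**
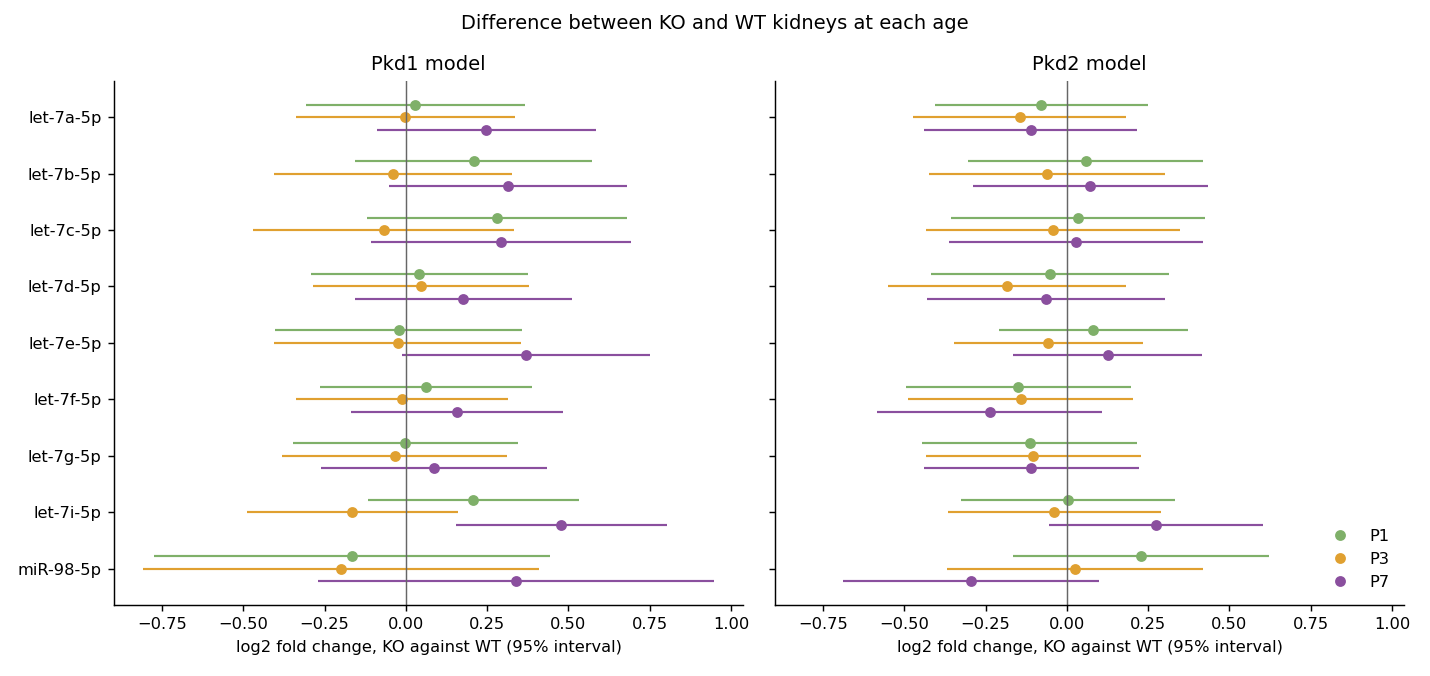
Log2 fold change of KO against WT (x axis) for each member (y axis) at P1, P3 and P7 in the Pkd1 model (left) and the Pkd2 model (right), with 95% intervals from the quasi-likelihood fit. With all libraries in the fit, the points of the Pkd1 model at P7 lie to the right of 0, from 0.09 to 0.48, and the interval of let-7i-5p there is clear of 0, but no member passed the adjusted threshold.

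let-7i-5p, the member made from a single hairpin on chromosome 10, held the highest KO estimate at P7 in both models. In the Pkd1 model it was at 3426, 3129 and 3871 CPM in WT and 4517, 5536 and 4465 CPM in KO, which is 1.39-fold (95% interval 1.11 to 1.74) or 0.48 ± 0.15 (SE) on the log2 scale, with an unadjusted p of 0.0068 and an adjusted p of 0.177 by edgeR. In the Pkd2 model it was at 4189, 4724 and 4680 CPM in WT and 5945, 4846 and 5657 CPM in KO, which is 1.21-fold (95% interval 0.96 to 1.52) or 0.28 ± 0.16 (SE), with an adjusted p of 0.268. Every KO library lay above every WT library in both models. The groups did not overlap for 2 of 9 members in the Pkd1 model, where 16.3% of all miRNAs did not, and for 2 of 9 in the Pkd2 model, where 25.2% did not. With a covariate for the miR-10 share, let-7i-5p in the Pkd1 model had an adjusted p of 0.0465, the lowest of 10 alternatives (the highest was 0.995), and leaving out single libraries gave 0.178 to 0.649. Without Pkd1 P7 WT replicate 3 its estimate was 0.52.

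miR-98-5p was the other member whose P7 libraries did not overlap. In the Pkd1 model the groups all but touched, with 557.8 CPM in WT replicate 3 and 558.2 CPM in KO replicate 1. It was at 482, 385 and 558 CPM in WT and 558, 677 and 565 CPM in KO of the Pkd1 model, a difference of 0.34 ± 0.29 SE (log2) at an adjusted p of 0.773, or 0.43 at 0.619 without WT replicate 3. The Pkd2 libraries held 566, 685 and 667 CPM in WT and 553, 508 and 502.9 CPM in KO, a difference of -0.29 ± 0.19 SE at an adjusted p of 0.319. The order of the genotypes was opposite in the models, and neither difference passed the test. The test of the difference between the models gave 0.64 (SE 0.35, unadjusted p = 0.0765, adjusted p = 0.466).

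Whether the genotypes part with age was tested as the change of the KO effect from P1 to P7. It was called by edgeR for 0 of 9 members in the Pkd1 model (0.142% of all miRNAs) and 0 of 9 in the Pkd2 model (0.536%). Unadjusted p-values under 0.05 were held by 0 of 9 in both (12% and 16.9% of all miRNAs), and DESeq2 called 0 of 9 in both (0.708% and 4.42%). The largest estimates belonged to miR-98-5p, at 0.50 ± 0.40 (SE) in Pkd1 and -0.52 ± 0.26 in Pkd2 kidneys.

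From P1 to P7 let-7b-5p rose in WT and in KO kidneys of both models with TMM scaling, the only member with a call in all 4 comparisons, while with library totals alone none of the 4 was called and the sign turned in 3. Between these ages 2 of 9 members were called in Pkd1 WT kidneys (21.5% of all miRNAs tested), 1 of 9 in Pkd1 KO (17.1%), 1 of 9 in Pkd2 WT (28.3%) and 2 of 9 in Pkd2 KO (24.4%), so the share called in the family lay just above that of all miRNAs in Pkd1 WT and below it in the other 3 comparisons. The estimates of the members had a median of 0.13 in Pkd1 WT, 0.35 in Pkd1 KO, 0.17 in Pkd2 WT and 0.16 in Pkd2 KO, beside -0.03, -0.05, -0.06 and -0.07 for all miRNAs.

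**Figure D4:**
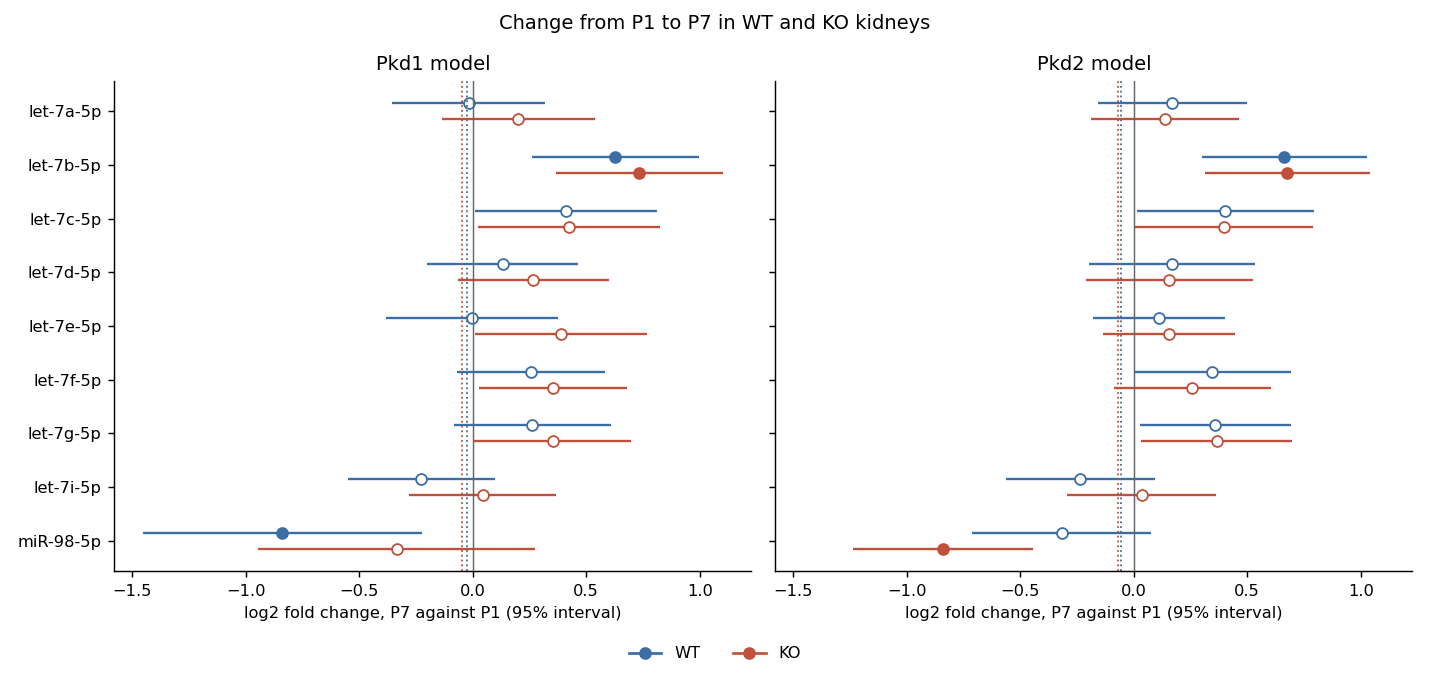
Log2 fold change of P7 against P1 (x axis) for each member (y axis) in WT (blue) and KO (red) kidneys of the Pkd1 model (left) and the Pkd2 model (right), with 95% intervals. Filled points have an adjusted p under 0.05 and dotted lines mark the median of all miRNAs tested (-0.07 to -0.03). Levels are scaled by TMM. let-7b-5p is filled on the right in all 4 comparisons, at 0.63 to 0.73, where library totals alone would turn its sign in 3, and miR-98-5p lies to the left in all 4, filled in Pkd1 WT and Pkd2 KO.

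let-7b-5p, whose hairpin shares a transcript with let-7c-2, was at 363, 374 and 427 CPM in Pkd1 WT kidneys at P1 and at 555, 481 and 762 CPM at P7, a rise of 0.63 (SE 0.17, 1.55-fold, 95% interval 1.199 to 1.99, adjusted p = 0.0213). In Pkd1 KO kidneys it went from 441, 398 and 505 CPM to 709, 844 and 682 CPM, by 0.73 (SE 0.17, 1.66-fold, 95% interval 1.29 to 2.14, adjusted p = 0.0113). No P7 library overlapped a P1 library in either genotype, which held for 33.1% of all miRNAs in Pkd1 WT and 49.4% in Pkd1 KO. The Pkd2 WT libraries held 742, 846 and 696 CPM at P1 and 1067, 1311 and 1236 CPM at P7, a rise of 0.66 (SE 0.17, 1.58-fold, adjusted p = 0.00883). The Pkd2 KO libraries held 697, 953 and 728 CPM at P1 and 1348, 1045 and 1406 CPM at P7, a rise of 0.68 (SE 0.17, 1.60-fold, adjusted p = 0.0099). Here too all P7 libraries lay above all P1 libraries. Of all miRNAs 49.9% in Pkd2 WT and 31.8% in Pkd2 KO did not overlap between these ages, in either direction. The 4 comparisons share no library, but WT and KO of a model share the fit, its estimate of the spread and the TMM scaling. The calls within a model are therefore not independent.

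The call in Pkd1 WT kidneys rested on single libraries. Without the 4 libraries of distant miR-10 share the change was 0.40 (adjusted p = 0.0836), without P7 replicate 3 alone the change of let-7b-5p was 0.38 (adjusted p = 0.115), and without P1 replicate 1 or 2 the adjusted p was 0.0642 or 0.0528. In Pkd1 KO it was 0.0587 without P1 replicate 2. Both Pkd2 calls held when any 1 library was left out (largest adjusted p 0.0494 in WT and 0.0476 in KO). The call in Pkd2 WT was lost without a filter on low counts (adjusted p = 0.0528) and that in Pkd2 KO with only the compared libraries in the fit (adjusted p = 0.0879). With library totals from which miR-10 was taken out, the estimates of let-7b-5p were 0.12 in Pkd2 WT and 0.13 in Pkd2 KO, and neither was called (adjusted p = 0.663 and 0.636).

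The step in which let-7b-5p rose depended on the scaling. With TMM, from P1 to P3 its estimates were 0.14 in Pkd1 WT and 0.16 in Pkd2 WT, and from P3 to P7 they were 0.49 (SE 0.17, adjusted p = 0.0674) and 0.50 (SE 0.17, adjusted p = 0.102). Neither step was called by itself with edgeR. DESeq2 called the later step in both models, with an adjusted p of 0.0498 and 0.0239. With library totals alone the steps were 0.75 and -0.68 in Pkd1 WT and -0.10 and 0.06 in Pkd2 WT, none of them called. As a share of the reads of the 9 members, which no scaling changes, let-7b-5p in Pkd1 WT was 0.83 percentage points higher at P3 than at P1 without overlap, and P7 differed from P3 by -0.04 with overlapping libraries. Without the libraries of distant miR-10 share, P7 lay below P3 there without overlap, at a difference of -0.26 percentage points (2.45% to 2.61% against 2.76% to 2.82%, 2 libraries each). In Pkd2 WT both steps were upward without overlap, by 0.25 and 0.81 percentage points. The difference between the steps was not tested.

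let-7c-5p, which differs from let-7b-5p at a single base (G17A), had estimates of 0.40 to 0.42 from P1 to P7 in the 4 comparisons. Each had an unadjusted p under 0.05 with edgeR, and none passed the adjusted threshold (adjusted p = 0.116 to 0.137). Of all miRNAs 36.3% in Pkd1 WT, 31.6% in Pkd1 KO, 39.8% in Pkd2 WT and 37.8% in Pkd2 KO had an unadjusted p under 0.05. In Pkd1 WT let-7c-5p was at 1999, 1918 and 2136 CPM at P1 and at 2540, 2113 and 3397 CPM at P7, and the lowest P7 library lay inside the range of P1. In Pkd2 WT it was at 3283, 3618 and 3125 CPM at P1 and at 3779, 4825 and 4662 CPM at P7, without overlap, as for 49.9% of all miRNAs.

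miR-98-5p moved the other way. In Pkd2 KO kidneys it fell from 945, 1015 and 841 CPM at P1 to 553, 508 and 502.9 CPM at P7, to 0.56-fold (95% interval 0.42 to 0.74) or -0.84 ± 0.19 SE on the log2 scale (adjusted p = 0.00499), and the call held without any 1 library (-0.91 to -0.78). It was lost with only the compared libraries in the fit (-0.80, adjusted p = 0.0548), where 8.82% of all miRNAs were called, and kept under the other 9 alternatives. In Pkd2 WT kidneys it was at 654, 949 and 789 CPM at P1 and 566, 685 and 667 CPM at P7, an estimate of -0.32 (SE 0.19, adjusted p = 0.218) with overlapping groups. The fall is called in KO and not in WT, but the difference between the genotypes was not past the test (-0.52, adjusted p = 0.312).

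In Pkd1 WT kidneys the call of miR-98-5p was lost without any of 4 libraries. The P1 libraries held 627, 545 and 1376 CPM and the P7 libraries 482, 385 and 558 CPM, a change of -0.84 ± 0.29 SE (adjusted p = 0.0495), and P7 replicate 3 lay above P1 replicate 2. Without P1 replicate 3 the estimate was -0.30 (adjusted p = 0.336), and without P7 replicate 1, 2 or 3 the adjusted p was 0.111, 0.142 or 0.0612. Pkd1 KO kidneys had 713, 855 and 704 CPM at P1 and 558, 677 and 565 CPM at P7, an estimate of -0.34 (SE 0.29, adjusted p = 0.440). The P7 libraries of that group all lay below those of P1, but the difference did not pass the test. Of all miRNAs 49.4% did not overlap in that comparison.

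The remaining members had smaller or mixed estimates over the week, and none was called in any of the 4 comparisons with TMM scaling, under which the following values stand. let-7g-5p lay at 0.26 to 0.36 and let-7f-5p at 0.26 to 0.35 in all of them. let-7d-5p lay at 0.13 to 0.27, let-7a-5p at -0.02 to 0.20 and let-7e-5p at 0.00 to 0.39. let-7i-5p was the one member besides miR-98-5p with a negative estimate in both WT comparisons, -0.23 (SE 0.15) in Pkd1 and -0.24 (SE 0.16) in Pkd2, beside 0.04 and 0.03 in the KO kidneys. Its KO effect at P7 minus P1 was 0.27 (SE 0.22) in each model and was not called.

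From P1 to P3 3 of 9 members fell in Pkd1 WT kidneys with TMM scaling, where 18.8% of all miRNAs were called and 10.6% called lower: let-7a-5p by 0.49 on the log2 scale (SE 0.16, adjusted p = 0.0431), let-7f-5p by 0.53 (SE 0.15, adjusted p = 0.02995) and miR-98-5p by 1.25 (SE 0.29, adjusted p = 0.0132). With library totals alone let-7a-5p stood at 0.15, let-7f-5p at 0.10 and miR-98-5p at -0.59, so the sign of let-7a-5p and let-7f-5p turned, and none was called. let-7f-5p went from 6619, 6365 and 8408 CPM to 4947, 4426 and 5449 CPM, without overlap, as for 29.6% of all miRNAs. It then rose from P3 to P7 by 0.79 (SE 0.15, 1.72-fold, adjusted p = 0.00425), to 9080, 7024 and 9455 CPM, the single call of 9 members in that step (14.4% of all miRNAs, 6.23% called higher). That rise was called without any 1 library (largest adjusted p 0.0262). It was not called with library totals alone, where the estimate turned to -0.45 (adjusted p = 0.404), or with totals from which miR-10 was taken out (0.35, adjusted p = 0.0613). Leaving out libraries removed each of the 3 falls in turn. The call of let-7a-5p was lost when any 1 of the 6 libraries was left out (adjusted p = 0.0537 to 0.177) and that of let-7f-5p without P1 replicate 1 or 3 or P3 replicate 1 or 2 (adjusted p = 0.0512 to 0.112). That of miR-98-5p was lost without P3 replicate 2 (adjusted p = 0.0577), and without P1 replicate 3 its change was -0.71 (adjusted p = 0.0320).

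In Pkd2 WT kidneys edgeR called 0 of 9 members from P1 to P3 (0.268% of all miRNAs), 0 of 9 had an unadjusted p under 0.05 (14.2% of all) and DESeq2 called 0 of 9 (2.28% of all). let-7f-5p was at 8512, 8870 and 7076 CPM at P1 and 7227, 10259 and 9628 CPM at P3, and miR-98-5p at 654, 949 and 789 CPM and 461, 771 and 698 CPM, with overlapping groups in both cases. From P3 to P7 0 of 9 were called with edgeR (4.16% of all miRNAs), 2 of 9 had an unadjusted p under 0.05 (24.5% of all) and DESeq2 called 1 (10.5% of all). The change with age was not compared between the models by a test.

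These directions are relative to TMM scaling, which sets the median of all miRNAs near 0. Scaled by library totals alone, the median of all miRNAs from P1 to P7 became -0.68 in Pkd1 WT, -1.16 in Pkd1 KO, -0.78 in Pkd2 WT and -0.97 in Pkd2 KO, and that of let-7b-5p became 0.07, -0.37, -0.04 and -0.17, none of them called. Relative to the median of all miRNAs let-7b-5p then stood 0.75, 0.79, 0.75 and 0.80 higher, against 0.66, 0.78, 0.72 and 0.74 with TMM. miR-98-5p stood 0.72, 0.29, 0.24 and 0.75 lower than that median with totals alone and 0.81, 0.29, 0.26 and 0.77 lower with TMM. Under both scalings the distance of these members from the median of all miRNAs was similar. The scalings differ by a factor per library that moves all its miRNAs alike. This distance is therefore largely kept by construction, and its likeness is no test of the direction of a member. The sign of let-7b-5p turned between the scalings in 3 of the 4 comparisons. That of miR-98-5p was negative in all 4 under each of the 10 alternatives (-1.72 to -0.22).

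The makeup of the family is a ratio within a library and does not depend on scaling. From P1 to P7 the share of let-7b-5p in the reads of the 9 members was higher in all 4 comparisons without overlap, from 1.76% to 1.996% at P1 to 2.45% to 2.96% at P7 in Pkd1 WT and from 2.75% to 2.86% to 3.69% to 4.12% in Pkd2 WT. let-7g-5p was likewise higher in 4 of 4, by 0.37 to 0.81 percentage points. Larger shifts were those of let-7f-5p (3.91 in Pkd1 WT and 3.16 in Pkd2 WT) and let-7c-5p (2.13 and 1.80). Both were higher without overlap in WT and overlapped in KO of both models. Shares of let-7d-5p and let-7e-5p overlapped in 4 of 4 with all libraries. Without the libraries of distant miR-10 share, that of let-7e-5p in Pkd1 WT was lower at P7 without overlap (2.82% to 2.85%, 2 libraries, against 2.998% to 3.34%, 3 libraries). The share of miR-98-5p was lower in 4 of 4, and that of let-7i-5p and let-7a-5p in 3 of 4. With 3 libraries against 3 an exact permutation test cannot give a p under 0.1, so no test was run on shares, and a higher share of 1 member lowers the others by construction.

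let-7i-5p made 19.3% to 19.9% of the family in Pkd1 WT kidneys at P1 and 15.1% to 16.97% at P7, and 18.7% to 20.5% and 13.96% to 15.03% in Pkd2 WT. In KO kidneys at P7 it made 17.3% to 19.1% in the Pkd1 model and 17.1% to 19.9% in the Pkd2 model. KO libraries thus lay above WT libraries at P7 in both models, by 2.47 and 3.69 percentage points on average. At P1 KO lay above WT in the Pkd1 model (21.02% to 21.3% against 19.3% to 19.9%), and the ranges overlapped in the Pkd2 model. At P3 the ranges overlapped in both. Without the 4 libraries of distant miR-10 share they did not overlap at P3, where KO lay below WT in the Pkd1 model (17.2% to 19.1% against 20.6% to 20.7%, 2 libraries each) and above it in the Pkd2 model (17.9% to 18.8%, 3 libraries, against 16.9% to 17.8%, 2 libraries). At P7 in the Pkd1 model the difference without WT replicate 3 was 2.14 percentage points.

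**Figure D5:**
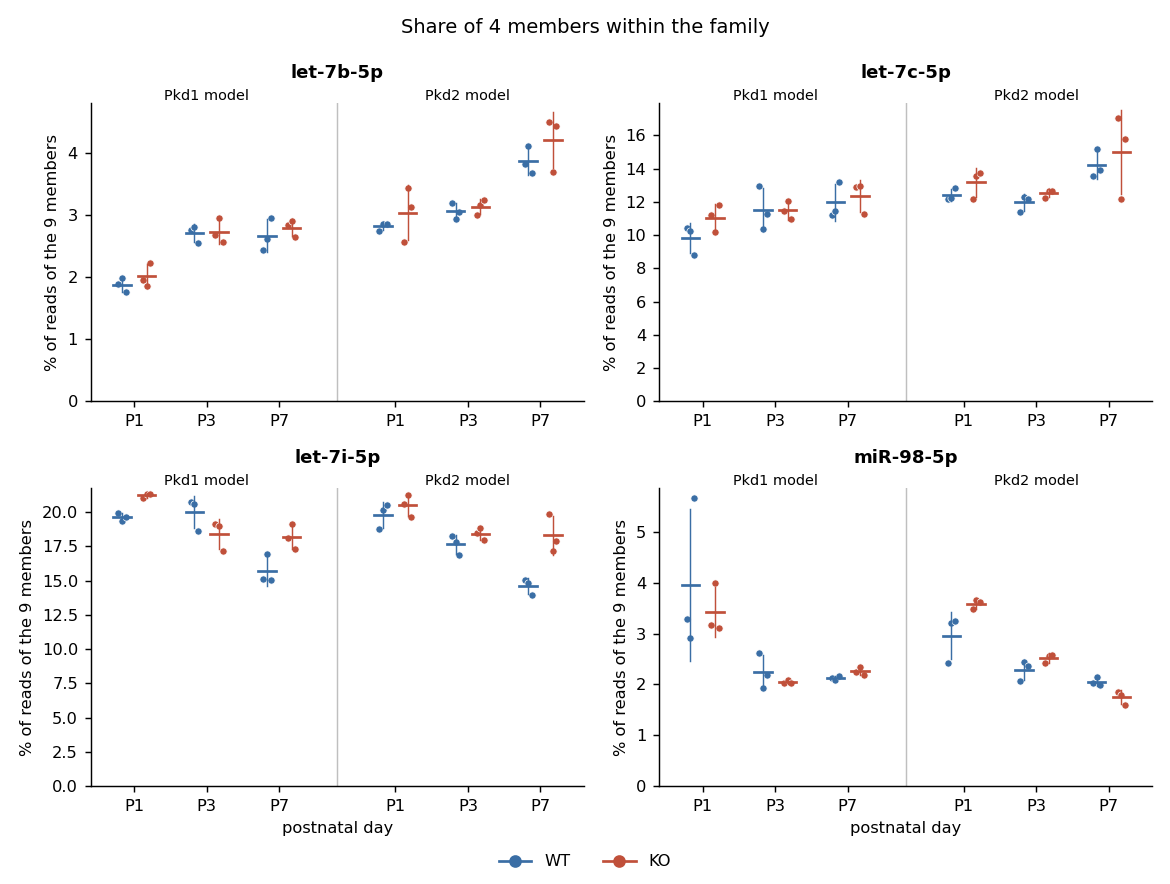
Share of let-7b-5p, let-7c-5p, let-7i-5p and miR-98-5p in the reads of the 9 members (y axes, percent, from 0) at P1, P3 and P7 in WT (blue) and KO (red) kidneys, with a point per library and a bar at the mean ± SD (n = 3). let-7b-5p lies higher at P7, up to 4.51%, let-7i-5p lies lower at P7 than at P1 in WT and above WT in KO at P7 in both models, and Pkd1 P1 WT replicate 3 holds the 5.66% of miR-98-5p.

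Other products of the family were taken as the 14 further mature names that start with let-7 or miR-98, of which 13 could be tested. In KO against WT edgeR called 0 of 13 in each of the 6 comparisons, with 0 to 1 at an unadjusted p under 0.05, and DESeq2 called 1 at P7 in the Pkd2 model. From P1 to P7 1 was called higher in Pkd1 WT (10.3% of all miRNAs). In Pkd1 KO edgeR called 0, with 2 at an unadjusted p under 0.05 (31.6% of all miRNAs), and DESeq2 called 0 (19.5%). In Pkd2 WT 1 was called higher (11.4%), and in Pkd2 KO 1 higher (11.8%) and 2 lower (12.6%). The 3 rises were all let-7b-3p, the passenger strand of the let-7b hairpin, which was named after its values were seen. It went from 22.9 ± 3.81 to 54.5 ± 5.88 CPM (SD, n = 3) in Pkd1 WT (1.25, SE 0.22, adjusted p = 0.00179), from 46.4 ± 0.83 to 84.2 ± 4.67 CPM in Pkd2 WT (0.86, SE 0.16, adjusted p = 0.00123) and by 0.88 (SE 0.16, adjusted p = 0.00139) in Pkd2 KO. In Pkd1 KO it changed by 0.54 (SE 0.22, adjusted p = 0.105). Both strands of that hairpin therefore had calls in the same direction in 3 of the 4 comparisons with TMM scaling. Values of let-7b-3p with library totals alone are not given here. The 2 falls in Pkd2 KO were let-7g-3p (-0.83, adjusted p = 0.0307) and let-7i-3p (-0.86, adjusted p = 0.0406), also named after their values were seen. Of the most abundant names, let-7d-3p, let-7a-1-3p and let-7c-2-3p had no call in these 4 comparisons, and the last 2, which have the same sequence, held 66831 and 66817 reads.

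let-7j, the most abundant of these names with 534264 reads, has the sequence of let-7i-5p with G8U, a base of the seed, and 2 more bases at its 3′ end.
let-7j: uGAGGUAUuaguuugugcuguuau
let-7i-5p: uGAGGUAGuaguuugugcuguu

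Reads of let-7j amounted to 8.63% to 20.4% of those of let-7i-5p in a library, and whether such reads are a transcript of their own or let-7i-5p reads with a changed base was not tested. In KO against WT at P7 it had estimates of 0.39 (SE 0.15, adjusted p = 0.364) and 0.36 (SE 0.18, adjusted p = 0.224), of the sign of let-7i-5p.

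The miR-99, miR-100 and miR-125 families share transcripts with let-7 hairpins in the mouse, in clusters such as that of Mir99ahg, and 11 of their mature names were taken as partners. In KO against WT edgeR called 0 of 11 partners at each age in both models, with 0 to 2 of 11 at an unadjusted p under 0.05, and DESeq2 called 1 at P3 in the Pkd1 model and 1 at P7 in the Pkd2 model. From P1 to P7 7 of 11 were called higher and 0 lower in Pkd1 WT, where 10.3% of all miRNAs were called higher and 11.2% lower, and 6 higher and 2 lower in Pkd1 KO (10.1% and 7.08% of all). The counts were 2 higher and 0 lower in Pkd2 WT (11.4% and 16.9% of all) and 1 higher and 0 lower in Pkd2 KO (11.8% and 12.6% of all). Medians of the partners were 0.86, 0.52, 0.44 and 0.40, beside -0.03, -0.05, -0.06 and -0.07 for all miRNAs. miR-100-5p rose by 1.81 (SE 0.27, adjusted p = 0.000425) in Pkd1 WT and 1.19 (SE 0.23, adjusted p = 0.00121) in Pkd2 WT. In the Spaca6 cluster of let-7e, miR-99b and miR-125a, miR-99b-5p rose by 0.97 (SE 0.21, adjusted p = 0.00632) in Pkd1 WT and 0.63 (SE 0.22, adjusted p = 0.0413) in Pkd2 WT. miR-125a-5p was called in Pkd1 WT (1.11, adjusted p = 0.00696) and not in Pkd2 WT (0.68, adjusted p = 0.116). The other strands and let-7e-5p had no call in either, with estimates of -0.11 and -0.24 for miR-99b-3p, -0.21 and -0.15 for miR-125a-3p and 0.00 and 0.11 for let-7e-5p. The differences between products of the cluster were not tested. These changes with age stand under TMM scaling. Values of the partners with library totals alone, where the median of all miRNAs fell from P1 to P7, are not given here.

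The miRNAs most like the family were found by Pearson's r of log2 CPM over the 36 libraries, which share depth and scaling, among 315 miRNAs with a mean of at least 10 CPM. Those nearest to the mean of the 9 members were miR-143-3p (r = 0.780), miR-532-5p (0.743), miR-1839-5p (0.727), miR-324-5p (0.722) and miR-132-3p (0.719). Members did not all lie close to each other. let-7a-5p was nearest to let-7e-5p (r = 0.930), its neighbour by a single base, and let-7c-5p to let-7b-5p (r = 0.870). The nearest miRNA to let-7b-5p was miR-22-5p (r = 0.889) and to let-7i-5p miR-99b-3p (r = 0.885), while miR-98-5p and let-7b-5p were unrelated (r = -0.05).

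Markers of the kidney and of other cells were read as summed levels beside these results. All 4 miRNAs of tubules (miR-192-5p, miR-194-5p, miR-204-5p and miR-30a-5p) and all 5 of epithelium (the miR-200 family) were present in every library, as the label of kidney requires. Between P1 and P7 the tubule sum went from 37335 to 54268 CPM to 69909 to 83796 CPM in Pkd1 WT and from 47333 to 53224 CPM to 93487 to 98932 CPM in Pkd2 WT, in the direction of let-7b-5p. The smooth muscle sum (miR-143-3p and miR-145a-5p) went from 23212 to 30931 CPM to 38557 to 75574 CPM and from 37216 to 43730 CPM to 49844 to 81162 CPM. The epithelial sum was higher without overlap too, from 1702 to 2591 CPM to 2728 to 3893 CPM and from 4914 to 5583 CPM to 7409 to 8221 CPM. The endothelial sum (miR-126a-3p and miR-126a-5p) had overlapping ranges from P1 to P7, 4537 to 6640 CPM and 6059 to 9662 CPM in Pkd1 WT and 17079 to 19175 CPM and 19100 to 28444 CPM in Pkd2 WT. From P1 to P3 in Pkd1 WT, where 3 members fell, the erythroid sum (miR-451a, miR-144-3p and miR-486a-5p) went from 2792 to 3725 CPM down to 1093 to 1252 CPM, and it was back at 2561 to 3083 CPM at P7. At P1 in the Pkd1 model, where let-7c-5p did not overlap between genotypes, the smooth muscle sum was 34856 to 41668 CPM in KO and the erythroid sum 2093 to 2431 CPM. At P7 the tubule sum was 51573 to 69180 CPM in Pkd1 KO and 49993 to 99184 CPM in Pkd2 KO, and in the Pkd2 model the erythroid sum was 2620 to 3266 CPM in WT and 4276 to 6773 CPM in KO, and the endothelial sum 12909 to 19345 CPM in KO. Sums for leukocytes (4 markers, 109 to 631 CPM), neurons (2 markers, 152 to 415 CPM), skeletal muscle (3 markers, 14.03 to 1146 CPM) and liver (1 marker, 0.053 to 341 CPM) were also read, and the highest skeletal muscle sum was that of Pkd1 P1 WT replicate 1. The part of cell makeup in the changes of let-7 members was not tested.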

How the data were processed

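The authors trimmed the adaptor, discarded reads of 17 bases or fewer and used miRDeep2 for counting (version not given in the sources used here) against miRBase release 21 and the mm10 genome. The authors deposited raw read counts, 1 row per pair of mature miRNA and hairpin, of which the one with most reads was taken. Totals ran from 12569939 to 32663566 reads a library, so counting error is small beside the spread of libraries.

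The test was that of edgeR 4.0.16 (R 4.3.3), the quasi-likelihood F-test with TMM factors and 1 term per group, on the 18 libraries of a model, over the 706 (Pkd1) or 746 (Pkd2) miRNAs that had 10 or more counts in 3 or more libraries, and on all 36 libraries (775 miRNAs) for differences between models. P-values were adjusted by Benjamini-Hochberg over all miRNAs tested, with a threshold of 0.05. Group values are CPM with the SD. The 19 comparisons were recomputed with DESeq2 1.42.0, other scalings, filters, covariates and sets of libraries. Log2 CPM used a prior count of 2. The steps were tested on simulated data. Replicate libraries differed by more than counting noise (smallest chi-square per degree of freedom 33.3).

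All 9 members are named. The members and lists were chosen with earlier results of these data known, and other names follow a fixed rule, by abundance or likeness, unless said otherwise. Sequences and hairpin coordinates are those of RefSeq (GRCm38.p6). No batch is given in the labels, and Pkd1 and Pkd2 messenger RNAs were not analysed here and genotype was taken from the labels unchecked. Sequences between the arms of the hairpins are not reported here.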

Additional observations from a re-analysis of the deposited data

How the results depend on the processing

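Under the alternatives other than leaving out a library, 159 counts of members called stayed within 1.5 times the value reported and 31 did not. Medians of the log2 fold change were held against the median SE of the members in that comparison, and 171 moved by no more than it and 19 by more. Counts of members called are given here with the share of all miRNAs called under the same setting in brackets. From P1 to P3 in Pkd1 WT kidneys the 3 members called (18.8%) became 5 with DESeq2 (22.4%) and 5 with the miR-10 covariate (24.8%), 1 without a filter (7.02%), 0 with library totals alone (1.13%) and 0 with only the compared libraries (1.61%). From P3 to P7 in Pkd1 WT the count was 4 with DESeq2 (18.6%) and 6 with the covariate (25.4%), and in Pkd2 WT 1 (10.5%) and 2 (16.2%). From P1 to P7 library totals alone gave 0 in Pkd1 WT (19.3%), 0 in Pkd1 KO (27.2%), 0 in Pkd2 WT (29.8%) and 1 in Pkd2 KO (35.7%), and totals without miR-10 gave 4 (35.1%), 2 (25.9%) and 3 (43.8%) in the first 3. Without a filter it was 0 in Pkd1 WT (7.49%) and Pkd2 WT (10.7%), with the covariate 6 in Pkd1 KO (25.1%), 4 in Pkd2 WT (42%) and 4 in Pkd2 KO (32.8%), and with DESeq2 2 in Pkd2 WT (31.8%). Without the 4 libraries of distant miR-10 share, an alternative chosen after seeing the data, it was 0 in Pkd1 WT (16.7%), 3 in Pkd1 KO (28.1%) and 3 in Pkd2 WT (33.2%), and with only the compared libraries 0 (9.65%), 2 (38%) and 2 (36.7%), and 0 in Pkd2 KO (8.82%). KO against WT at P7 in Pkd1 had 1 call with the covariate (2.83%). Leaving out single libraries gave 0 to 2 calls for Pkd1 WT P3 against P1, 1 to 5 for P7 against P3, 0 to 1 for P7 against P1 and 0 to 1 in Pkd1 KO.

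Medians of the members with library totals alone were 0.46 for Pkd1 KO against WT at P1, 0.24, -0.75 and -0.45 for Pkd1 WT P3 against P1, P7 against P3 and P7 against P1, -0.77 for Pkd1 KO P7 against P1 and -0.40 for the change of the Pkd1 KO effect. In Pkd2 they were 0.19, -0.18, -0.35, -0.53 and -0.73 in the same order of comparisons. With totals without miR-10 they were 0.025, -0.33 and -0.10 in the Pkd1 comparisons with P7 (WT, WT, KO) and -0.17, -0.20, -0.37 and -0.39 in Pkd2 (WT P3 against P1 first). Without the 4 libraries the median of Pkd1 WT P7 against P3 was 0.31. Leaving out single libraries gave 0.28 to 0.60 there, -0.045 to 0.27 for P7 against P1, and 0.10 to 0.50 for Pkd1 minus Pkd2 at P7. The log2 ratio of the family total with library totals alone was 0.51, 0.23, -0.72, -0.49 and -0.85 in the Pkd1 comparisons and -0.30, -0.49 and -0.68 in the Pkd2 comparisons with P7, and without miR-10 it was 0.057, -0.35 and -0.19, and -0.15, -0.34 and -0.35.

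Single members reversed in 9 cases. With library totals alone let-7a-5p was at 0.15 and let-7f-5p at 0.10 for Pkd1 WT P3 against P1, let-7f-5p at -0.45 for P7 against P3, and let-7b-5p at -0.37, -0.037 and -0.17 for P7 against P1 in Pkd1 KO, Pkd2 WT and Pkd2 KO. With totals without miR-10 let-7i-5p was at -0.41 in Pkd1 KO and -0.51 in Pkd2 KO and let-7e-5p at -0.43 in Pkd2 WT. The causes of these changes were not tested.

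Deviations from the group mean were correlated between KO and WT libraries of the same number (r from -0.48 to 0.51, over 0.1 in 7 of 18 pairs). Pairs of other numbers had r from -0.70 to 0.58, over 0.1 in 15 of 36. Deviations within a group are tied to each other, so this check cannot decide whether the replicate numbers mark pairs. The paper states that controls were littermates of the same age, and the labels give no litters. A replicate block left 1 of 2 calls in Pkd1 WT P7 against P1, where miR-98-5p was at -0.80 (adjusted p = 0.0685 with edgeR), and moved no other count by over 1.5 times.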
